A study of Mus musculus with 36 samples.

Results

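Haemoglobin genes were followed in whole newborn brain through 3 genes, the adult beta-globin genes Hbb-b1 and Hbb-b2 and the alpha-globin gene Hba-a1. Their probes were found by the NCBI Gene ID that the array's probe IDs carry, and each gene had 1 probe, so that 3 of the 10823 probes that could be given a gene name were used. All 3 probes were detected in all 18 brains and passed the filter on dim probes. The array measured 6 brains of postnatal day 0.5 from each of 3 mouse lines, namely the C10 congenic line, written A.B6chr10 in the series text, the inbred strain B6 (short for C57BL/6) and the inbred strain A/J. By the usual naming of congenic lines, A.B6chr10 reads as an A/J background with chromosome 10 material of B6, and how much of that chromosome it carries is not known here. No treatment is named for any line, and the labels do not say whether blood was washed out of the brains. Total RNA of each brain was hybridised singly to an Illumina Sentrix Mouse-6 bead array, and brains are numbered 1 to 6 within a line after the sample titles. The series, per its title, concerns Rnf41 in anxiety-like behaviour, depression and induced seizures.

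Adult haemoglobin is a tetramer of alpha chains and beta chains that each hold a haem group and carry oxygen in red cells. Developing red cells make globin RNA in bulk, and young red cells that still hold it circulate around birth, and a brain taken with its blood holds such cells in its vessels. Inbred mouse strains carry different versions of the beta-globin locus. In the version called diffuse the adult genes are Hbb-b1 and Hbb-b2, and in the version called single, which C57BL/6 carries, they are named Hbb-bs and Hbb-bt. Embryonic chains, among them those of Hbb-y and Hba-x, are replaced by the adult chains before birth. The reference gene table puts the beta-globin genes on chromosome 7 and the alpha-globin genes on chromosome 11. It lists Hbb-bs and Hbb-bt in one run with Hbb-y, with Hbb-b1 and Hbb-b2 outside that run. Hba-a1 and Hba-a2 are near-identical copies and the adult beta genes are similar to each other, and the probe sequences were not used here. The share of each signal that came from a sister copy, or from a copy of the other version of the locus, was therefore not measured, and each value below belongs to a probe and is uncertain as to the copy.

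The stretches before the adult globin genes show what these genes share in sequence. They are the 250 bases before the start of each gene in RefSeq (assembly GRCm38.p6, C57BL/6J), written in the direction of transcription. Capitals mark matches, on either strand, to 4 motifs common in globin promoters, which are the TATA-like box ATATAA, the CCAAT box, the CACCC box and the GATA motif GATAA. Hbb-bt lies at chr7:103813924-103814173 on the minus strand, Hbb-bs at chr7:103827929-103828178 on the minus strand and Hba-a1 at chr11:32283422-32283671 on the plus strand.
Hbb-bt: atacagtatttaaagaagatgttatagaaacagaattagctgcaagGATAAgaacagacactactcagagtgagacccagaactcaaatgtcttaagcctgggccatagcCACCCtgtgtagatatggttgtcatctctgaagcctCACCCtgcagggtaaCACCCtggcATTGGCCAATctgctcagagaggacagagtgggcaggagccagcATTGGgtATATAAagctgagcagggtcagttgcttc
Hbb-bs: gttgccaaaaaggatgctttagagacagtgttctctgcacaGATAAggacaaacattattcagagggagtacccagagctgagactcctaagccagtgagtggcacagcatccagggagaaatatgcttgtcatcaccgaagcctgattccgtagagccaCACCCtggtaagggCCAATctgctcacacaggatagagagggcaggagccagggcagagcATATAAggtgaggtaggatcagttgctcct
Hba-a1: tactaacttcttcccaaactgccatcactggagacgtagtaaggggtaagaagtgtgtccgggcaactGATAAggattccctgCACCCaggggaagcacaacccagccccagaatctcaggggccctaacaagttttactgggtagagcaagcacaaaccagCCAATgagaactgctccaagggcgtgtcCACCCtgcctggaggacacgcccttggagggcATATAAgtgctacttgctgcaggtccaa
Each of the 3 stretches held all 4 motifs, which was so for 0.466% of the 32851 stretches of this length in the table. Singly, ATATAA was found in 9.1% of them, CCAAT in 33.8%, CACCC in 52% and GATAA in 22.6%. The motifs were chosen because they are common in globin promoters, so these shares are no independent contrast. Of the embryonic genes, Hbb-y held no match to ATATAA and Hba-x none to the CCAAT box. Hbb-bt held 3 matches to the CACCC box and 3 to the CCAAT box, against 1 of each in Hbb-bs. The stretches of Hbb-bt and Hbb-bs were identical at 178 of 243 aligned bases (73.3%). Those of Hba-a1 and Hba-a2 shared an unbroken run of 247 bases. These are matches of letters only. Hbb-b1 and Hbb-b2 themselves have no printed sequence here.

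The arrays were alike in brightness, with median signals between 26.3 and 26.9 and between 14415 and 15737 of 46116 probes detected. Xist, the RNA of the inactive X chromosome, had a signal of 7077 in A/J brain 6 and at most 23 in the other 17 brains, and results were also computed without that brain. Which arrays shared a chip was not known here. The separate brains are the replicates, and their number limits the precision.

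The Hbb-b2 probe was bright in the C10 congenic and A/J brains and close to the detection limit in every B6 brain. In C10 congenic brains its deposited signal had a lowest value of 7435.8, a median of 10398.7 and a highest of 10880.4. In B6 brains the lowest was 100.9, the median 111.25 and the highest 152.2. In A/J brains the lowest was 8706.1, the median 10142.5 and the highest 13801.3. No B6 brain overlapped any brain of the other lines. The dimmest C10 congenic brain was 48.9 times as bright as the brightest B6 brain, and the dimmest A/J brain 57.2 times as bright as it.

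**Figure D1:**
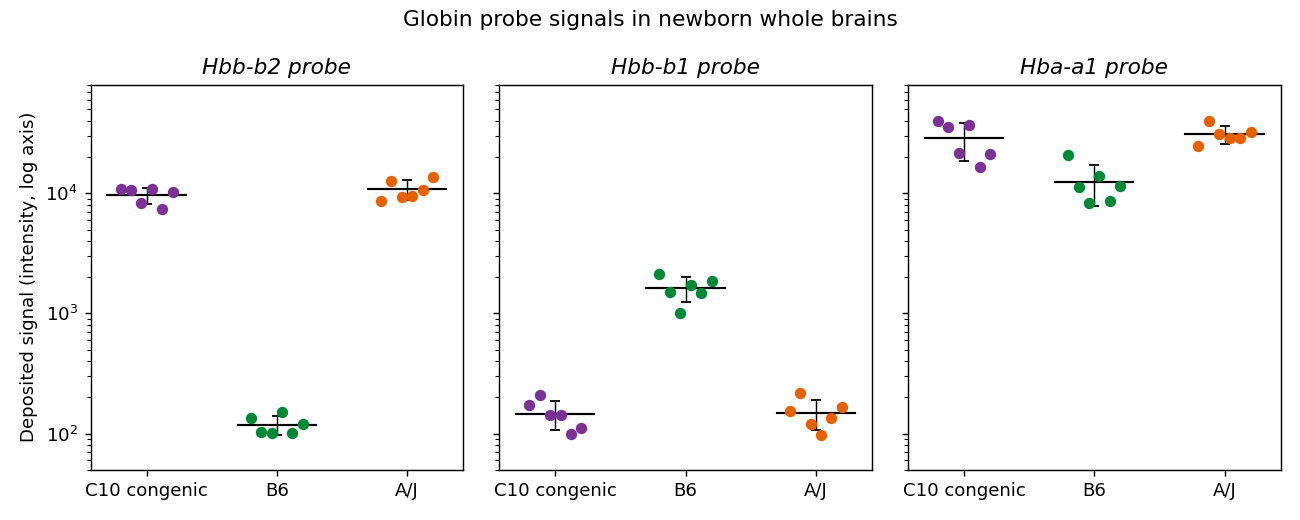
Deposited signal (intensity, log axis) of the Hbb-b2, Hbb-b1 and Hba-a1 probes, with 1 point per brain, in brain order, for the C10 congenic line, B6 and A/J; horizontal lines are means and bars the SD (n = 6 brains each). Hbb-b2 lies between 100.9 and 152.2 in B6 and at 7435.8 or above in the other lines, and Hbb-b1 shows the opposite arrangement.

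Means of the Hbb-b2 signal were 9694 ± 1467 in C10 congenic, 119 ± 21.1 in B6 and 10796 ± 2023 in A/J brains (SD, n = 6 each). On the log2 scale, after a shift of 75 was added to each signal, Hbb-b2 was higher in C10 congenic than in B6 brains by 5.64 (SE 0.124, limma adjusted p = 1.2e-20). It was lower in B6 than in A/J brains, at -5.79 (SE 0.124, limma adjusted p = 6.52e-21). Of all 15892 probes tested, it had the largest difference in size in both of these comparisons. The ratio of deposited means was 81.8 for C10 congenic over B6 and 91.1 for A/J over B6. The detection p of this probe in B6 brains ran from 0.00309 to 0.0099, just under the limit of 0.01, so the ratios rest on a B6 signal little above background. With other scalings of the signals, the B6 minus A/J difference lay between -6.50 and -4.71.

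The Hbb-b1 probe was arranged the other way, bright in B6 and dim in the C10 congenic and A/J lines. C57BL/6 carries the version of the locus with Hbb-bs and Hbb-bt, so the copy that this probe read in B6 brains is not known here. Its signal in C10 congenic brains had a lowest value of 99.9, a median of 143.2 and a highest of 209.2. In B6 brains these were 1010.3, 1615.9 and 2126.1, and in A/J brains 97.4, 144.55 and 218.1. Every B6 brain lay above every brain of the other lines. The C10 congenic mean was 147 ± 40.3, the B6 mean 1618 ± 382 and the A/J mean 149 ± 42.1 (SD, n = 6 each). Hbb-b1 was lower in C10 congenic than in B6 brains, at -2.92 (SE 0.155, limma adjusted p = 3.76e-13), and higher in B6 than in A/J brains by 2.91 (SE 0.155, limma adjusted p = 3.75e-13). The ratio of deposited means was 11.02 for B6 over C10 congenic and 10.9 for B6 over A/J. By size of difference the probe stood at place 31 of all probes between C10 congenic and B6 and at place 33 between B6 and A/J. The dim signals of Hbb-b1 were also near the detection limit, with the highest detection p at 0.0099 in C10 congenic brain 5.

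The alpha-globin probe, Hba-a1, differed less and in the direction of Hbb-b2. Its signal in C10 congenic brains had a lowest value of 16532, a median of 28815.3 and a highest of 39829.2. In B6 brains the lowest was 8240.6, the median 11403 and the highest 20971.3, and in A/J brains the lowest was 24925.5, the median 30249.7 and the highest 40162.4. All B6 brains lay below all A/J brains, whereas B6 brain 1 reached into the C10 congenic range, above C10 congenic brain 5. The means were 28790 ± 10030 in C10 congenic, 12450 ± 4675 in B6 and 31117 ± 5113 in A/J brains (SD, n = 6 each). Hba-a1 was higher in C10 congenic than in B6 brains by 1.19 (SE 0.212, limma adjusted p = 0.000254), with 5 of 6 C10 congenic brains above all B6 brains. It was lower in B6 than in A/J brains, at -1.38 (SE 0.212, limma adjusted p = 3.91e-05). The ratio of deposited means was 2.31 for C10 congenic over B6 and 2.50 for A/J over B6. In bulk RNA, fewer red cells and less globin RNA per cell cannot be told apart. Which copies the probe reads was not measured either, so a lower probe signal need not mean less alpha-globin RNA.

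Between the C10 congenic line and A/J none of the 3 probes differed by the test, against 0.931% of all probes called in that comparison, and none had an unadjusted limma p under 0.05. Hbb-b2 was at -0.15 (95% interval -0.40 to 0.11, limma adjusted p = 0.598). Hbb-b1 was at -0.01 (95% interval -0.33 to 0.31, limma adjusted p = 0.981) and Hba-a1 at -0.18 (95% interval -0.62 to 0.26, limma adjusted p = 0.721). With 6 brains per line, the data leave room for true differences of any size inside these intervals. The lines' signals overlapped for all 3 probes, where 2.01% of all probes showed no overlap. All 3 probes were called between C10 congenic and B6, where 12.1% of all probes were called, and all 3 between B6 and A/J, where 16.1% were. Signals without any overlap were seen for 2 of 3 probes between C10 congenic and B6 (6.22% of all probes) and for 3 of 3 between B6 and A/J (8.56%). The comparisons share lines, since the same B6 brains stand in the last 2.

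**Figure D2:**
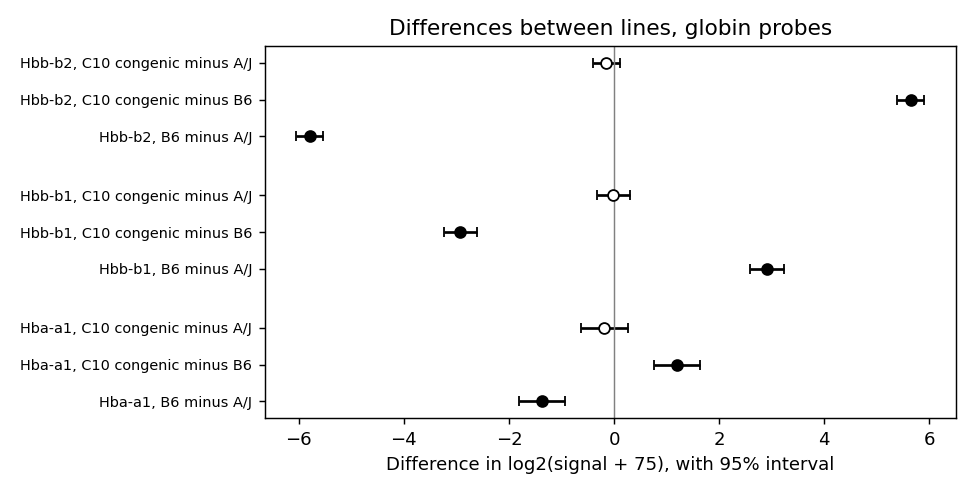
Difference in log2(signal + 75) between lines for each globin probe and comparison, with the 95% interval from the fit; filled points passed the test at an adjusted p under 0.05. The 3 open points, all of C10 congenic minus A/J, lie between -0.18 and -0.01 and their intervals include 0, and the 6 filled points have intervals away from 0.

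Exact permutation tests on the deposited signals, over all 924 splits of 12 brains and two-sided, gave the same calls. The smallest p they allow, 0.00216, was reached for Hbb-b2 and Hbb-b1 in both comparisons with B6 and for Hba-a1 in B6 minus A/J (exact permutation p = 0.0039 after adjustment over 9 tests). Hba-a1 in C10 congenic minus B6 had an adjusted exact permutation p of 0.00649. In C10 congenic minus A/J the adjusted exact permutation p was 0.401 for Hbb-b2, 0.937 for Hbb-b1 and 0.696 for Hba-a1. By mean signal the order of the lines was A/J, C10 congenic, B6 for Hbb-b2 and Hba-a1, and B6, A/J, C10 congenic for Hbb-b1. The neighbours A/J and C10 congenic did not differ beyond their spread in any of the 3, so their order is not established. By median it was reversed for Hbb-b2 only, with 10398.7 in C10 congenic and 10142.5 in A/J brains.

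The embryonic globin genes on the array, Hbb-y and Hba-x, were not detected in any of the 18 brains. The other 12 genes of the globin list, Hbb-bs, Hbb-bt and Hba-a2 among them, were not measured through a named probe.

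Brains of 1 line also differed from each other. In the C10 congenic line, Hba-a1 fell into 2 runs, with 39829.2, 35934.5 and 37400.6 in brains 1, 2 and 4 and 21696.1, 16532 and 21347.8 in brains 3, 5 and 6. Brains 1, 2 and 4 were also the 3 brightest C10 congenic brains for Hbb-b2 and for Hbb-b1, and brain 5 was the dimmest for all 3 probes. The arrays of C10 congenic brains 1, 2 and 4 detected 15561, 15631 and 15174 probes, against 14706, 14613 and 14938 for brains 3, 5 and 6. The part of this in the result was not tested. The SD between beads of the Hba-a1 probe was 2500.4 in C10 congenic brain 3 and 3404.8 in brain 4, and at most 1293 in the other 16 brains. No correlation is given for this line, since its brains formed separate runs.

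**Figure D3:**
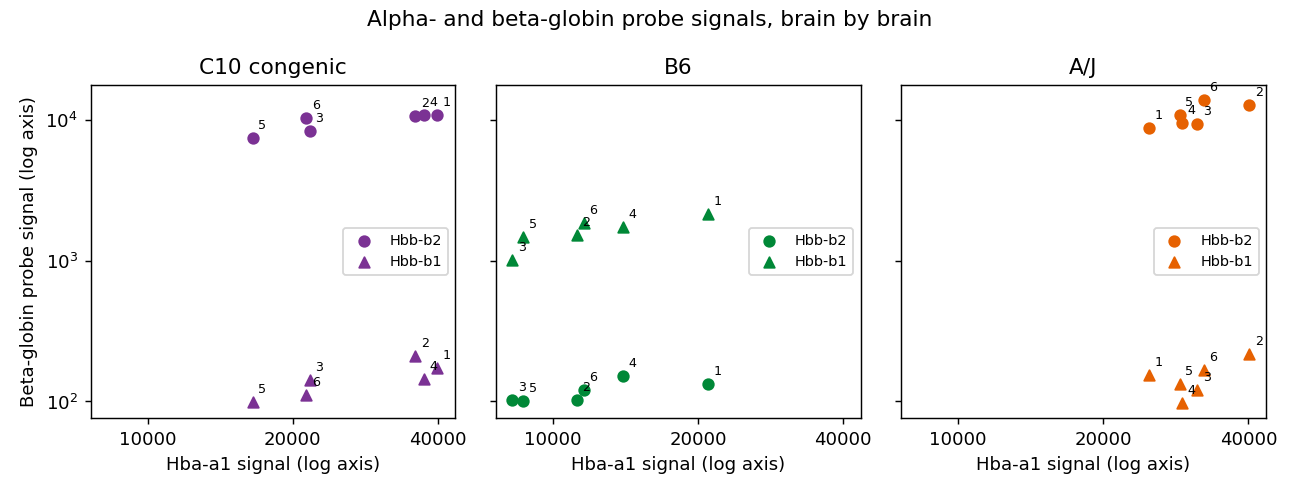
Signal of the 2 beta-globin probes (vertical, log axis; circles Hbb-b2, triangles Hbb-b1) against that of Hba-a1 (horizontal, log axis) in each brain, labelled by its number, for the C10 congenic line, B6 and A/J. In B6 the brain with the highest Hba-a1, brain 1 at 20971.3, also has the highest Hbb-b1, at 2126.1.

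In B6, the line with dim Hbb-b2, brain 1 had the highest Hba-a1 (20971.3) and the highest Hbb-b1 (2126.1), and brain 3 the lowest of both (8240.6 and 1010.3). Across the 6 B6 brains, Hba-a1 and Hbb-b1 correlated on the log2 scale with Pearson r = 0.847 (exact permutation p = 0.0361, adjusted 0.2 over 6 relations) and Spearman rho = 0.943 (exact permutation p = 0.0167, adjusted 0.1). Without B6 brains 1 and 3, r was 0.657. Hba-a1 and Hbb-b2 in B6 had r = 0.755 (exact permutation p = 0.0806, adjusted 0.2) and rho = 0.886 (exact permutation p = 0.0333, adjusted 0.1), and r was 0.864 without the same brains. In A/J, Hba-a1 and Hbb-b2 had r = 0.717 (exact permutation p = 0.1, adjusted 0.2) and rho = 0.771 (exact permutation p = 0.103, adjusted 0.154), and r was 0.765 without brains 1 and 2. Hba-a1 and Hbb-b1 in A/J had r = 0.562 (exact permutation p = 0.217, adjusted 0.217) and rho = 0.6 (exact permutation p = 0.242, adjusted 0.29), and r was 0.905 without those brains. Hbb-b1 and Hbb-b2 had r = 0.654 in B6 (exact permutation p = 0.153, adjusted 0.217; rho = 0.771, exact permutation p = 0.103, adjusted 0.154), and r was 0.662 without B6 brains 1 and 3. In A/J they had r = 0.614 (exact permutation p = 0.192, adjusted 0.217; rho = 0.543, exact permutation p = 0.297, adjusted 0.297), and r was 0.545 without A/J brains 2 and 4. All 6 correlations were positive, and none passed after adjustment. The relations of a line share brains and probes, so their signs are not independent of each other. Hbb-b2 in B6 brains and Hbb-b1 in A/J brains were near the detection limit. As a description over all 18 arrays, deviations from the line means correlated with r = 0.749 for Hbb-b1 with Hba-a1, 0.712 for Hbb-b2 with Hba-a1 and 0.58 for Hbb-b1 with Hbb-b2; points of 1 array share its RNA and its scaling, and the 2 runs of C10 congenic brains enter these values.

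Genes of red cell formation and haem handling were looked at beside the globins through 4 lists. Of their 89 genes, 27 had a named probe and 20 passed the filter. Defining genes whose probe was detected in no brain numbered 6, namely Cpox of haem synthesis, Steap3, which reduces iron, Nfe2, a transcription factor of the globin locus, and Car1, Ube2l6 and Xk of red cells. Between B6 and A/J, 3 of the 20 genes were higher and 0 lower in B6, against 15.5% of all named genes called. Between C10 congenic and B6, 1 was higher and 3 lower in the C10 congenic line, against 10.7%. Between C10 congenic and A/J, 1 was higher and 0 lower, against 0.828%. Their median log2 difference was 0.01 in B6 minus A/J, -0.11 in C10 congenic minus B6 and -0.08 in C10 congenic minus A/J, beside -0.03, -0.002 and -0.03 over the 4347 named genes. Of the 20 genes, 5 had an unadjusted limma p under 0.05 in B6 minus A/J, 5 in C10 congenic minus B6 and 3 in C10 congenic minus A/J.

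Slc25a39 and Glrx5 of haem synthesis were called in none of the comparisons by limma, and neither had an unadjusted p under 0.05. Of the 4 iron genes, Trf, which encodes the iron carrier transferrin, was called. Its signal had a median of 119.35 in C10 congenic brains (95.9 to 166.1), 234.3 in B6 brains (191.4 to 264.3) and 127.35 in A/J brains (83.6 to 156.8), and B6 did not overlap the other lines. Trf was at -0.61 in C10 congenic minus B6 (limma adjusted p = 0.000417) and 0.61 in B6 minus A/J (limma adjusted p = 0.000333). Of the 4 regulators, Cbfa2t3, a co-repressor found in erythroid complexes, was called. Its median was 347.4 in C10 congenic (273.6 to 378.6), 609.45 in B6 (498.3 to 746.7) and 324.15 in A/J brains (264.5 to 482.3). The difference was -0.74 in C10 congenic minus B6 (limma adjusted p = 0.000106) and 0.73 in B6 minus A/J (limma adjusted p = 0.000122). Bcl11a, which silences embryonic globin genes, Lmo2 and Zbtb7a were measured and not called.

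Of the 9 measured genes of the red cell membrane and its enzymes, 2 were called. Prdx2, a peroxide-removing enzyme abundant in red cells, had a median of 130.3 in C10 congenic (64.2 to 181.1), 4769 in B6 (4553.5 to 4840.7) and 146.3 in A/J brains (123.3 to 232.3). It was lower in C10 congenic than in B6 brains, at -4.58 (limma adjusted p = 7.42e-19), and higher in B6 than in A/J brains by 4.39 (limma adjusted p = 2e-18). Its probe was not detected on all 18 arrays, and the size of these differences rests on dim signals in the C10 congenic and A/J lines. Dmtn, which encodes dematin of the membrane skeleton, had a median of 2437 in C10 congenic (2071.3 to 2683.6), 1494 in B6 (968.9 to 1945.2) and 1688 in A/J brains (1158.1 to 1890.1), with no overlap of the C10 congenic line with the others. Dmtn was higher in C10 congenic than in B6 brains by 0.72 (limma adjusted p = 0.000309) and than in A/J brains by 0.57 (limma adjusted p = 0.0361). The call against A/J was lost in 10 of 18 fits that each left out 1 brain, those without C10 congenic brains 2 to 6 or A/J brains 1 to 5, and under 2 of 9 alternatives of the processing. The summed signal of the 9 genes lay between 8715 and 10036 in C10 congenic, 12681 and 15744 in B6 and 8823 and 9157 in A/J brains; the mean of Prdx2 alone was 130 in C10 congenic, 4743 in B6 and 158 in A/J brains. Epb41, Ank1, Sptb, Add1, Cd47, Hk1 and Mgst3 were not called in any comparison.

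**Figure D4:**
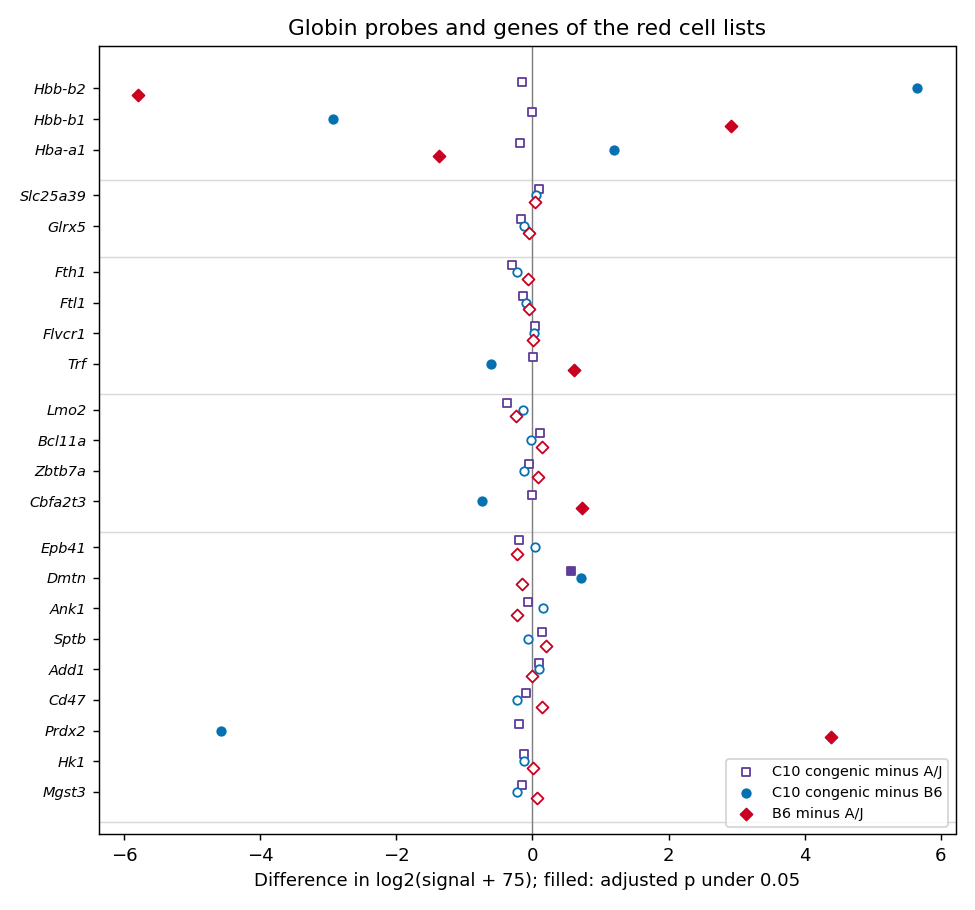
Differences in log2(signal + 75) in the 3 comparisons for the globin probes (top) and measured genes of the 4 lists, from top to bottom haem synthesis, iron and haem handling, regulators, and red cell membrane and enzymes; filled symbols passed the test at an adjusted p under 0.05. Trf, Cbfa2t3, Prdx2 and Dmtn have filled symbols, and Prdx2 reaches -4.58 and 4.39.

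Markers of other cells of the brain and its vessels were set beside the globins. Of 20 measured genes of vessel cells, white blood cells and platelets, microglia, neurons, glia and progenitors, and choroid plexus, 0 were called by limma between C10 congenic and A/J (1 at an unadjusted p under 0.05), 2 between C10 congenic and B6 and 3 between B6 and A/J. The shares over all named genes were 0.828%, 10.7% and 15.5% in the same order, so these counts are near the background. No gene of glia and progenitors or of choroid plexus was called in any comparison (1 of them, of choroid plexus, at an unadjusted limma p under 0.05 in B6 minus A/J). Egfl7 of vessel cells was at -0.31 in B6 minus A/J (limma adjusted p = 0.0421), a call kept in 8 of 18 fits that each left out 1 brain and lost without B6 brains 1 to 5 or A/J brains 1, 2, 3, 4 or 6; it was also lost under 2 of 9 alternatives of the processing. Lyz2, the lysozyme of white blood cells, was at 0.60 in C10 congenic minus B6 (limma adjusted p = 0.00322) and -0.63 in B6 minus A/J (limma adjusted p = 0.00159), and it was detected in 3 of 6 B6 brains. Csf1r of microglia was at 0.56 in C10 congenic minus B6 (limma adjusted p = 0.0112). Rbfox3 of neurons was at 0.37 in B6 minus A/J (limma adjusted p = 0.0428), a call kept in 9 of 18 such fits and lost without B6 brains 1 to 5 or A/J brains 1, 3, 5 or 6; it was also lost under 4 of 9 alternatives of the processing. The summed signal of the 4 measured vessel genes was 730 to 965 in C10 congenic, 876 to 996 in B6 and 683 to 1161 in A/J brains. That of the 2 measured white blood cell and platelet genes was 272 to 402 in C10 congenic, 271 to 459 in B6 and 362 to 480 in A/J brains, with Ptprc, Cd3e, Elane, Mpo and Itga2b undetected in all brains. Of the vessel list, Vwf was undetected in all brains. Summed ranges of both lists overlapped between all 3 lines, and their part in the globin differences was not tested. Of the brain's own markers, Gfap, Aldh1l1, Olig2, Nefl and Snap25 were undetected through the probes named for them. Tubb3, Map2, Dcx, Gap43 and 3 further neuron genes were measured. The naming of probes is an inference, so an undetected probe need not mean that the RNA was absent. That limit holds for every gene given as undetected here, those of red cells, vessels and white blood cells included.

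The measured named genes nearest the globin genes in gene order were compared, up to 10 on each side. No limit was set on distance and distances are not given here, so some may lie far from the globin genes. The 20 nearest measured genes of the beta-globin genes on chromosome 7 held 0 called genes in C10 congenic minus A/J (3 at an unadjusted limma p under 0.05). In C10 congenic minus B6, 2 were lower and 0 higher, where 10.7% of all named genes were called, and in B6 minus A/J, 3 were higher and 1 lower, where 15.5% were. Both counts are near these shares. Pgap2, of GPI-anchor remodelling and the nearest on one side, had a median of 167.55 in C10 congenic, 325.6 in B6 and 177.1 in A/J brains. It was at -0.70 in C10 congenic minus B6 (limma adjusted p = 0.00144) and 0.62 in B6 minus A/J (limma adjusted p = 0.00378). Arrb1, a beta-arrestin, was at -0.63 and 0.55 in the same comparisons (limma adjusted p = 0.000666 and 0.00245), detected in 1 of 6 C10 congenic, 5 of 6 B6 and 2 of 6 A/J brains. Cckbr, a cholecystokinin receptor, was at 0.92 in B6 minus A/J (limma adjusted p = 0.000131) and Ric3, a chaperone of acetylcholine receptors, at -0.56 (limma adjusted p = 0.00147).

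Around the alpha-globin genes on chromosome 11, 0 of 20 neighbours were called in C10 congenic minus A/J (5 at an unadjusted limma p under 0.05). In C10 congenic minus B6, 1 was higher and 4 lower, beside 10.7% of all named genes called, and in B6 minus A/J, 3 were higher and 2 lower, beside 15.5%; nothing particular to the locus is read from this. Nprl3, which encodes a subunit of the GATOR1 complex and whose introns hold enhancers of the alpha-globin genes, was the nearest measured gene on one side. Its signal had a median of 63.35 in C10 congenic, 106.7 in B6 and 93.35 in A/J brains, detected in 1, 5 and 3 of 6 brains, and it was at -0.32 in C10 congenic minus B6 (limma adjusted p = 0.0334). That call was lost in 7 of 18 fits that each left out 1 brain, those without C10 congenic brains 1 to 4 or B6 brains 4 to 6, and under 3 of the 8 alternatives of the processing that measured it. Ublcp1, a phosphatase of the proteasome, was at -0.73 in C10 congenic minus B6 and 0.61 in B6 minus A/J (limma adjusted p = 7.92e-06 and 7.42e-05). Rtn4, the neurite growth inhibitor Nogo, was at -0.40 and 0.44 in the same comparisons (limma adjusted p = 0.00749 and 0.00276). Sptbn1, a spectrin, was at 0.44 in C10 congenic minus B6 (limma adjusted p = 0.0289), a call lost without C10 congenic brains 1, 2 or 6 or B6 brains 2, 3 or 4 and under 2 of 9 alternatives of the processing, and at -0.49 in B6 minus A/J (limma adjusted p = 0.0113). Ubtd2 was at -0.49 in B6 minus A/J (limma adjusted p = 0.0121). Eml6 was detected in all 6 B6 brains (191.6 to 336.2) and in no C10 congenic or A/J brain. Its probe thus passed the filter on dim probes only through the line where it is high, and its p-values are no independent support. The probe fell out of the fit when a B6 brain was left out. Eml6 was at least 1.93-fold lower in C10 congenic than in B6 brains and at least 1.97-fold higher in B6 than in A/J brains (limma adjusted p = 4.73e-08 and 6.82e-09). These bounds set the mean of the normalized B6 signals against the dim line's mean, taken per array from the probe's own signal or, where that was lower, from the dimmest detected signal.

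**Figure D5:**
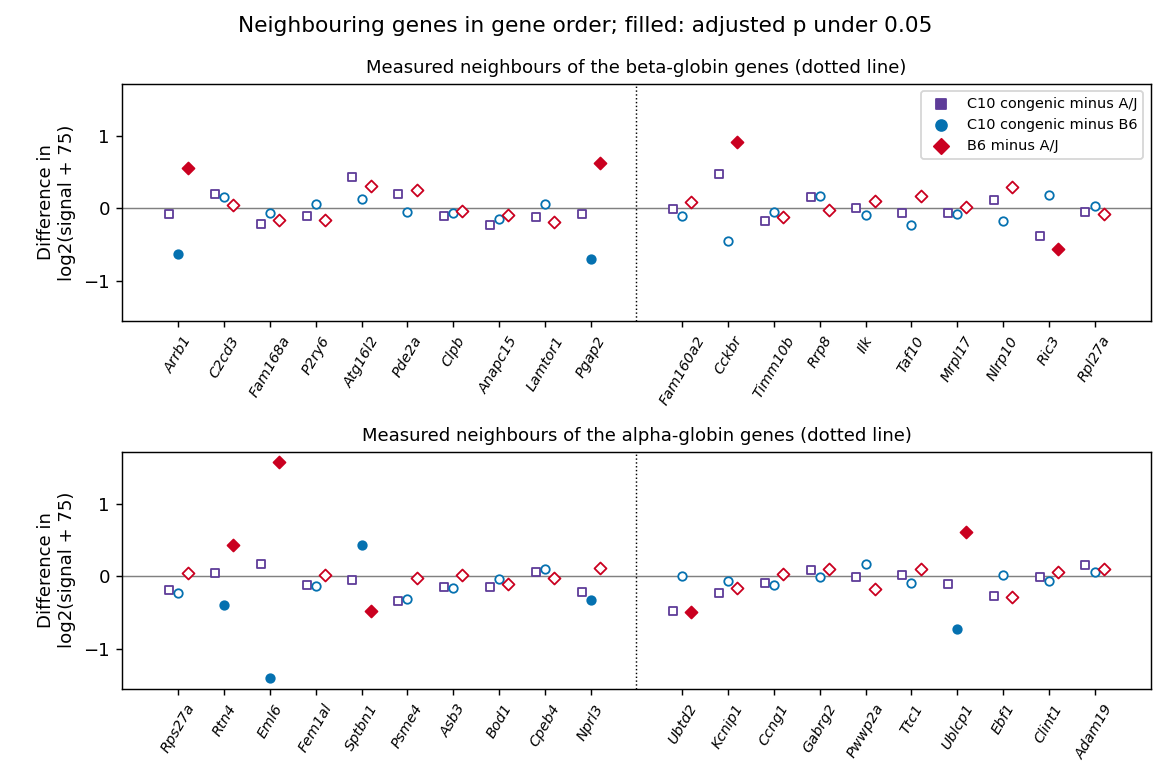
Differences in log2(signal + 75) in the 3 comparisons for the measured genes nearest the beta-globin genes (top) and the alpha-globin genes (bottom), up to 10 on each side in the order of the reference gene table; the dotted line marks the globin genes and filled symbols passed the test at an adjusted p under 0.05. No symbol of C10 congenic minus A/J is filled in either panel.

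The genes with the pattern most like each globin probe were listed as a description, by Pearson r over the 18 arrays, without a test. For Hbb-b2 they were Zfp775 (r = 0.982) and Lrp6 (0.98) on chromosome 6, Hddc3 on chromosome 7 (0.98), Dbpht2 on chromosome 12 (0.976) and Zf12 on chromosome X (0.976). For Hbb-b1 they included Cox7a2l on chromosome 17 (0.976), Srp9 on chromosome 1 (0.984), Prdx2 on chromosome 8 (0.981) and Tmem68 on chromosome 4 (0.976). For Hba-a1 they were Myh7 (0.891), Zfand6 (0.89), Pih1d1 (0.88), 4632415L05Rik (0.874) and Sfrp1 (0.87). The line means enter these values. The log2 difference of B6 minus A/J ran from -2.27 to -1.80 for the genes listed for Hbb-b2. It ran from 2.26 to 5.50 for those listed for Hbb-b1 and from -1.07 to -0.50 for those listed for Hba-a1. Tmem68 held the 5.50, with signals of -23.9 to 25.4 in C10 congenic, 2247.3 to 2650.8 in B6 and -28 to -3.7 in A/J brains. The C10 congenic and A/J signals were at background, so its probe passed the filter through B6 only. The size of its difference rests on that floor, and its r is no independent support. Zf12 was likewise at background in B6 brains (-28.2 to 10.7). By deviations from the line means, which also hold the 2 runs of C10 congenic brains, Hba-a1 itself was the named gene most like Hbb-b1 and the second most like Hbb-b2, after Zfand6 (0.787). Next to Hba-a1 stood Rbm33 (0.852), Prmt7 (0.826), Rab14 (0.794), H3c4 (0.791) and Pop4 (0.79). Rae1 (0.698), Sae1 (0.695) and Mtmr3 (0.656) followed for Hbb-b2, and Trim25 (0.736), Rab8a (0.717), Col2a1 (0.716) and Col3a1 (0.713) for Hbb-b1.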

How the data were processed

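Whole brains of postnatal day 0.5 were measured on bead arrays, 6 per line, and the groups and brain numbers come from the sample titles. The 18 hippocampal samples were not analysed here. The deposited signal is an intensity per probe that the authors had background subtracted (lowest value -59) and brought to nearly equal quartiles; the submitters' processing notes name BeadStudio without a version. The deposited detection score is a fraction, and 1 minus it was read as a detection p. The bead SD and bead number are further values the authors deposited per the file headers. The authors' series table was identical to the array values (largest difference 0).

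Probe IDs that carry a number were read as NCBI Gene IDs. Of 11897 such numbers 82.6% are listed in RefSeq's table of mouse genes (GRCm38.p6). This reading is an inference. It named 9832 probes, clone names named 991, 34757 stayed unnamed and 536 controls were left out. Signals were shifted by 75, taken to log2 and quantile normalized (a scale that understates differences of dim probes), and the 15892 probes whose detection p was below 0.01 on 6 or more arrays were kept. A gene other than the members was represented by its brightest kept probe. All 3 lines entered 1 limma fit (lmFit and eBayes, limma 3.58.1, R 4.3.3), p-values were adjusted over all kept probes by the Benjamini-Hochberg method, and an adjusted p under 0.05 counts as called. The fit was tested on simulated data. Permutation and correlation tests used scipy 1.17.1 in Python 3.11.15. The limma p-values set differences between line means against the spread between brains within lines. Permutation p-values set the observed value against the other splits or pairings of these brains.

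The members and the gene lists were chosen with earlier results of these data known. Genes named are the members, genes of the lists and neighbours called in at least 1 comparison, and the 5 named genes most like each member, apart from items not reported here. Alternatives varied the normalization, the shift, the filter, the lines in the fit, weights, a block and each brain left out. The 9 alternatives of the processing also count the authors' series table as input. Its values are the same as those of the arrays, so it could not change a result.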

Additional observations from a re-analysis of the deposited data

Results flagged for a closer look

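Among 63 line groups tested, 7 held a brain that stood apart from the other 5 of its line, by its gap to the nearest brain over the range on the log2 scale (Dixon's test). Chance flags about 1 in 20 groups, and none of these groups was of a globin probe. Csf1r had its highest C10 congenic value in brain 5 (gap over range 0.675), at 568.5 against 287.6 to 362.8 in the others. Csf1r had its lowest B6 value in brain 1 (0.782), at 105.8 against 223.9 to 269.4. Dmtn had its lowest A/J value in brain 1 (0.643), at 1158 against 1594.7 to 1890.1. A/J brain 5 was lowest for Egfl7 (0.787), at 179.2 against 272.8 to 303.6, for Ric3 (0.737), at 162.3 against 232.6 to 262.5, and for Ubtd2 (0.638), at 104.5 against 161.5 to 201.1. Sptbn1 had its highest A/J value in brain 6 (0.637), at 720.1 against 549.2 to 606.2.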

How the results depend on the processing

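All 6 called globin differences kept their direction and call under 9 alternatives of the processing and in all 18 fits that each left out 1 brain. The 9 include the authors' series table, which holds the same values as the main input and could not change a result. The 3 uncalled differences of C10 congenic minus A/J stayed uncalled. Hbb-b1 in C10 congenic minus A/J, close to 0, changed sign with array weights (0.0763) and ranged from -0.0857 to 0.0723 over the fits that left out a brain. Of the other named genes, differences that were not called also changed sign in C10 congenic minus A/J, with array weights for Cbfa2t3 (0.118), Rbfox3 (-0.0548) and Sptbn1 (0.0265), and in C10 congenic minus B6, with a shift of 300, for Ubtd2 (-0.00454). Leaving out a brain gave -0.0684 to 0.0745 for Cbfa2t3, -0.0902 to 0.0145 for Lyz2 and -0.0566 to 0.0529 for Trf in C10 congenic minus A/J, and -0.11 to 0.0871 for Ubtd2 in C10 congenic minus B6; the cause was not tested.

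Calls of Dmtn (C10 congenic minus A/J), Egfl7 and Rbfox3 (B6 minus A/J), and Nprl3 and Sptbn1 (C10 congenic minus B6) were each lost under 2 to 4 alternatives, always without the filter, which adds probes to the adjustment, and kept their direction.

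Counts over all probes moved more. The 148 probes called in C10 congenic minus A/J became 88 without a shift, 1 without a filter, 971 with array weights and 287 with only the lines compared in the fit. Leaving out a brain gave 17 to 315, within 1.5 times of 148 only without C10 congenic brain 3 or B6 brains 2, 3 or 6. The 1922 probes of C10 congenic minus B6 became 1162 when detection in all 18 arrays was required, which leaves fewer probes, and the 2561 of B6 minus A/J became 4879 with array weights. Genes called in the 4 red cell lists became 0 without a shift, 0 without a filter and 3 with array weights in C10 congenic minus A/J (0 to 2 when a brain was left out, 2 without C10 congenic brain 1 or B6 brains 1 or 4), 2 with detection in all 18 arrays in C10 congenic minus B6, and 1 with that filter and 5 with array weights in B6 minus A/J. The cause was not tested.

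Brains of different lines share only a number. Deviations of the 18 same-numbered pairs correlated with r from -0.0915 to 0.334, over 0.1 in 8 pairs, and in 6 of 18 pairs a brain correlated best with the brain of its own number. With a replicate block 224 probes were called in C10 congenic minus A/J, and no globin call changed. The dim signals of Hbb-b2 in B6 and of Hbb-b1 in the other lines lie little above background, which limits the size of their ratios.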

Other observations

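Most probes of the array carry no gene name here, and several of them followed the globin probes. These were picked for their likeness after their values were seen, so the values below are a description with no independent support. Of the 10 probes most like Hba-a1 over the 18 arrays, 9 were unnamed, 8 of them RIKEN clones, with r from 0.893 to 0.964. The probe of clone 2510023M22 had medians of 26957 in C10 congenic, 11493 in B6 and 24758 in A/J brains, and was at -1.01 in B6 minus A/J. The probe of clone 1600013K09 had medians of 10839 in C10 congenic, 3239 in B6 and 9198 in A/J brains, and was at -1.57 in B6 minus A/J.

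Likeness within lines did not come with a single size of the difference between lines. The 10 probes most like Hba-a1 by deviations from the line means were all unnamed (r from 0.857 to 0.927), and their B6 minus A/J differences ran from -1.57 to 0.60. The one at 0.60, of clone 2510039D09, had medians of 10012 in C10 congenic, 11364 in B6 and 7193 in A/J brains, and was not called in B6 minus A/J (limma adjusted p = 0.102). The probe most like Hbb-b2 (r = 0.994) was also unnamed, with signals of 24298 to 30771 in C10 congenic, 697 to 883 in B6 and 22156 to 29568 in A/J brains.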
